A study of Homo sapiens with 6 samples.

Results

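The genes described are 10 developmental genes that have been reported as targets of p63 and that are linked to malformations of limb, palate or skin: NECTIN1, NECTIN4, FRAS1, FREM2, DLX3, DLX5, GATA3, SATB1, CHUK and MSX2. They were taken by name, with earlier results of these data known. All 10 were among the 18404 genes tested, each with 1 probe set that carries a single gene symbol. Messenger RNA was measured on 6 single-colour arrays of HaCaT, a spontaneously immortalised human keratinocyte line. In 3 samples (shTP63) a lentivirus delivered a short hairpin RNA against TP63, in the other 3 (shControl) cells received a lentiviral control vector, and RNA was taken 72 hours later in both groups. By its title, the series served a study of p63 and ACTL6A as activators of the Hippo-YAP pathway in squamous carcinoma. HaCaT is an adult cell line, so it models none of the embryonic tissues in which these genes act, and a knockdown by hairpin RNA is not a germline mutation of TP63. Whether replicates came from separate cultures is not stated, so p-values cover only the spread among these arrays, and that spread may be technical. In bulk RNA, fewer cells that make a transcript and less of it per cell cannot be told apart. The level of TP63 was not analysed here, so each direction rests on the sample labels.

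The transcription factor p63 is needed for stratified epithelia and for the ectodermal ridge that drives limb outgrowth. In humans, mutations in its gene cause syndromes that combine ectodermal dysplasia (defects of hair, teeth, nails and sweat glands) with clefts of lip or palate and split hands or feet. Mutations in many of the 10 genes cause overlapping malformations. Their products act at the cell surface (the nectins), in the basement membrane (FRAS1 and FREM2), in the nucleus (DLX3, DLX5, MSX2, GATA3 and SATB1) and in the kinase complex upstream of NF-kappa-B (CHUK).

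Values are log2 intensities, and differences are shTP63 minus shControl on that scale, so a difference of 1 is a doubling. The array medians lay between 7.44 and 7.57. The 95th percentile of the mean levels of 360 olfactory receptor genes, 6.81, served as a measure of background: 9 of the 10 genes had both group means above it, and SATB1 had both below it. The cells carried keratinocyte markers, with all 8 of 10 that were tested (KRT6A and COL17A1 were not analysed here) at group means of 11.88 to 13.82. Of these 8, CDH1 and ITGB4 rose and KRT5, KRT14, DSG3 and SFN fell, and their mean level was 12.68 to 12.72 on the shControl arrays and 12.55 on each shTP63 array. Of the 25 tested markers of fibroblasts, melanocytes, immune cells and endothelium, 12 had both group means above the background level. Of these 25, COL1A1 and PMEL rose, DCN and VWF fell, and the others did not pass. The mean level of the 9 fibroblast markers was 7.12 to 7.21 on the shControl arrays and 7.16 to 7.25 on the shTP63 arrays. The part of these marker levels in the results was not tested.

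In shTP63 the homeobox genes DLX3, DLX5 and MSX2, the adhesion receptor gene NECTIN1 and the transcription factor gene GATA3 fell, while the basement membrane gene FRAS1 and the adhesion receptor gene NECTIN4 rose. The largest of these falls was that of DLX3, which fell by 0.61 (SE 0.0568, n = 3 per group), and the larger of both rises was that of FRAS1, at 0.69 (SE 0.0459, n = 3 per group). CHUK, FREM2 and SATB1 did not pass the test. The test was limma's moderated test over all genes, two-sided, with Benjamini-Hochberg adjustment and a threshold of 0.05. It called 7 of the 10 genes (2 rose, 5 fell), whereas it called 41.5% of all genes tested (16.4% rose, 25.1% fell). The median difference of the 10 genes was -0.16 and their median absolute difference 0.29, against -0.01 and 0.12 over all genes. In 8 of the 10 genes the groups did not overlap, which held for 51.4% of all genes. The share of all genes called grew with level. Of 5 equal bins by level, the dimmest had 6.4% rising and 4.4% falling, the brightest 25.3% and 44.0%. The shares given here and for the lists below were not matched for level. The 10 genes were chosen with earlier results of these data known, so their contrast with all genes is a description only. No change reached a factor of 2: the folds of the genes that passed ran from 1.15 for NECTIN4 to 1.62 for FRAS1. By absolute difference FRAS1 ranked 469 among the 18404 genes, DLX3 ranked 678 and DLX5 ranked 1039, while GATA3 and NECTIN4 ranked 5607 and 5975.

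**Figure D1:**
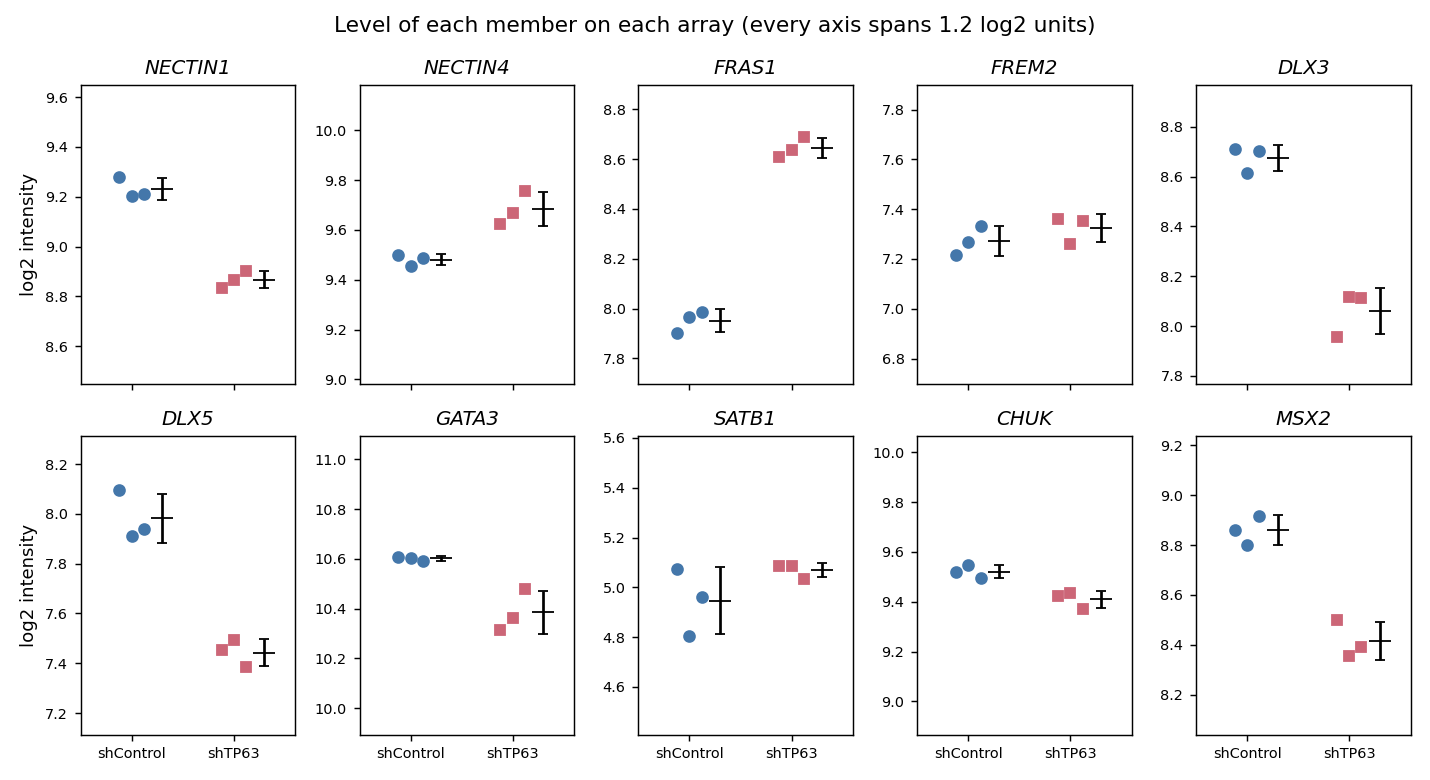
Log2 intensity (vertical axis, a span of 1.2 in every panel) of the 10 genes on each of the 3 shControl arrays (blue circles) and 3 shTP63 arrays (red squares); black marks are the group mean with its SD. The groups are apart in 8 panels, upwards in FRAS1 and NECTIN4 and downwards in NECTIN1, DLX3, DLX5, GATA3, CHUK and MSX2, and they overlap in FREM2 and SATB1.

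The sequence before the start site is shown for FRAS1 and NECTIN4, the genes that rose, for MSX2, a homeobox gene that fell, and for FREM2, the partner of FRAS1 that did not pass. RefSeq (GRCh38.p14) windows of the 250 bases before a start site were at hand for 7 of the 10 genes, with 6 start sites for GATA3, 4 for SATB1 and 1 for each of the others, and not for NECTIN1, DLX3 and DLX5. They were searched for the core of the paired half-sites that p63 and its relatives bind. The strict form, CATG and CATG with 6 bases between, was in 0 of the 15 windows of these genes and in 0.296% of all 35116 windows. The loose form, CNNG and CNNG with 6 bases between (N is any base), was in 12 of the 15 windows, against 68.6% of all windows. Each of the 7 genes held it in at least 1 window, but GATA3 and SATB1 had several windows each. The share of all genes with it in any window was not analysed here. Both forms read the same on the other strand, and the strict form is a special case of the loose one. The capitals mark the loose form, and sequences run 5′ to 3′ on the gene's strand.
FRAS1 (chr4:78057073-78057322, strand +): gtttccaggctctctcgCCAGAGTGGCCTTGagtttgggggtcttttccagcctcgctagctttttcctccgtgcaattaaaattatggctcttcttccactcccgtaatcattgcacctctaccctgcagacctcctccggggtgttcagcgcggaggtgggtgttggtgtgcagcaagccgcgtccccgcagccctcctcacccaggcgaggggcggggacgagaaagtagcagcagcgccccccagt
NECTIN4 (chr1:161089559-161089808, strand -): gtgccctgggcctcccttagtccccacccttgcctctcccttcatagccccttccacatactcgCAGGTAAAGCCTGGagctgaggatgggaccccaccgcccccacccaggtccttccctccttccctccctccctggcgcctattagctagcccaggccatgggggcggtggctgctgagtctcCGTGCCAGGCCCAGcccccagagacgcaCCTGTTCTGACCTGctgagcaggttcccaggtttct
MSX2 (chr5:174724332-174724581, strand +): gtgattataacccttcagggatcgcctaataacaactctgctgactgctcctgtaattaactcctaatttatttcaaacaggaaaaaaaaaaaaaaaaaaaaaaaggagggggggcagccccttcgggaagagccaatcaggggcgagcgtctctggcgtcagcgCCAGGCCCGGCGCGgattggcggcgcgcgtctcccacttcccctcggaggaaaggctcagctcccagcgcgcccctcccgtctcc
FREM2 (chr13:38686827-38687076, strand +): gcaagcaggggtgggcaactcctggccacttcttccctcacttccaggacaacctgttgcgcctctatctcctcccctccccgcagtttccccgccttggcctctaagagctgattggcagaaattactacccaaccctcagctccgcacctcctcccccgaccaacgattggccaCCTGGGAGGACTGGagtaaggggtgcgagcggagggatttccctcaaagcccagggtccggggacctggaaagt

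The loose form starts 233 bases before the start site in FRAS1, 85 bases before it in MSX2 and 74 bases before it in FREM2. NECTIN4 holds it 3 times, at 186, 64 and 36 bases. It thus stood before genes that rose, a gene that fell and a gene that did not pass, and a match of letters is no measure of binding. These windows cover the first promoter region alone, and distant enhancers were not analysed here.

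Nectins are immunoglobulin-like receptors that join neighbouring cells at adherens junctions, where afadin links them to actin. Mutations of NECTIN1 cause cleft lip and palate with ectodermal dysplasia, and those of NECTIN4 cause ectodermal dysplasia with fused digits. NECTIN1 was at 9.28, 9.20 and 9.21 on the shControl arrays and at 8.83, 8.86 and 8.90 on the shTP63 arrays. Every shTP63 value was below every shControl value, and NECTIN1 fell by 0.36 (SE 0.0446, limma adjusted p = 0.00021). NECTIN4 was at 9.50, 9.46 and 9.49 in shControl and at 9.62, 9.67 and 9.76 in shTP63. Here every shTP63 value was the higher, and NECTIN4 rose by 0.20 (SE 0.0482, limma adjusted p = 0.008). Its call was lost when the arrays were centred on their medians (difference 0.10, adjusted p = 0.125).

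The opposite movement of both nectins was compared within arrays, where a shift of a whole array cancels. The change of NECTIN1 minus that of NECTIN4 was -0.57 (SE 0.0254), and the 3 shTP63 arrays did not overlap the 3 shControl arrays. The exact two-sided permutation test gave p = 0.10, the smallest that 3 against 3 allows, or 0.14 after Benjamini-Hochberg adjustment over the 7 pairs of genes compared in this way, so no such pair could pass 0.05. The pairs were chosen after the values were seen.

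Of 7 tested nectin relatives, among them the nectin-like CADM proteins and afadin, 5 rose and 0 fell, or 71.4% called against 41.5% of all genes (16.4% rose), and their median difference was 0.26. PVR, the poliovirus receptor and a nectin-like protein, rose by 0.59 (SE 0.048), NECTIN2 by 0.40 (SE 0.0467) and CADM4 by 0.38 (SE 0.0399), and the limma adjusted p ran from 2.29e-05 to 0.000164. The other rises were those of CADM1 (0.26) and of AFDN, which encodes afadin (0.19), both named after their values were seen and both lost after centring on the array median and after quantile normalization over all probe sets. The calls of CADM1 and AFDN were also lost without single arrays, that of CADM1 without any 1 of 4 (replicates 2 and 3 of either group) and that of AFDN without any 1 of 3 (replicates 1 and 2 of shControl, 2 of shTP63). The difference of NECTIN3 was 0.17 (SE 0.0609), with both group means under the background level, and missed the threshold (limma adjusted p = 0.0561), though it passed with the replicate number as a block (0.0483) and without shControl replicate 3 (0.0418). NECTIN1 was thus the one gene among the 9 nectins, nectin-like genes and afadin tested that fell.

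FRAS1 and FREM2 are large extracellular proteins that form a complex in the basement membrane under embryonic epithelia. Loss of either causes Fraser syndrome, in which skin folds, digits and eyelids fail to separate. FRAS1 was at 7.90, 7.97 and 7.99 in shControl and at 8.61, 8.64 and 8.69 in shTP63. The groups were far apart relative to their spread, and the rise of 0.69 corresponded to 1.62-fold (limma adjusted p = 9.15e-06). It held in all 16 alternative settings, between 0.59 and 0.72. FREM2 was at 7.22, 7.27 and 7.33 in shControl and at 7.36, 7.26 and 7.35 in shTP63. Its groups overlapped, and the difference of 0.05 (95% interval -0.06 to 0.17) did not pass (limma adjusted p = 0.45). The sign for FREM2 turned under 3 of the 4 other scalings. Within arrays, FRAS1 minus FREM2 changed by 0.64 (SE 0.0396), with no overlap between groups and the same exact permutation p of 0.10.

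Of 7 tested partners of this complex, 2 rose and 1 fell, and these 42.9% are near the 41.5% called over all genes. GRIP1, the scaffold protein that carries FRAS1 and FREM2 to the basal cell surface and whose loss causes the same syndrome, was at 8.53 ± 0.061 in shControl and 7.71 ± 0.091 in shTP63 (SD, n = 3). It fell by 0.82 (SE 0.0578, limma adjusted p = 1.2e-05). The matrix protein gene VWA2 rose by 0.17 (SE 0.0466), a call lost under 2 scalings and without shControl replicate 2. NPNT, an integrin ligand of the basement membrane, rose by 0.14 (SE 0.0442) from a shControl mean under the background level, and its call held in 4 of 15 alternatives, not with replicate number as a block (adjusted p = 0.0664). FREM1, the third large protein of the complex, differed by -0.00 (SE 0.0508) with both groups under the background level.

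DLX3, DLX5 and MSX2 are homeobox transcription factors that pattern facial prominences, limb ridge, teeth and hair. DLX3 mutations cause defects of hair, teeth and bone, DLX5 lies in the region altered in a form of split hand and foot, and MSX2 mutations cause disorders of skull growth. DLX3 was at 8.71, 8.62 and 8.70 in shControl and at 7.96, 8.12 and 8.11 in shTP63. DLX5 was at 8.09, 7.91 and 7.94 in shControl and at 7.45, 7.49 and 7.39 in shTP63. In both genes all shTP63 values were lower, by more than the spread within either group. DLX3 fell 1.53-fold (limma adjusted p = 4.65e-05) and DLX5, with a difference of -0.54 (SE 0.0587), fell 1.45-fold (limma adjusted p = 0.00011). The falls of DLX3 and DLX5 differed by -0.08 (SE 0.0768), with overlap between groups and an exact permutation p of 0.50. MSX2 was at 8.86, 8.80 and 8.92 in shControl and at 8.50, 8.35 and 8.39 in shTP63. It too was lower on every shTP63 array, and it fell by 0.44 (SE 0.0542, limma adjusted p = 0.000203). All 3 calls held in all 16 alternatives.

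DLX genes lie in 3 pairs, and in 2 of them a member fell while its neighbour did not pass. DLX6, next to DLX5 in the RefSeq annotation, differed by -0.03 (SE 0.0559) and DLX4, next to DLX3, by -0.01 (SE 0.0523), while MSX1, the close relative of MSX2, differed by 0.02 (SE 0.0653). The signs of these 3 small values were not stable across alternatives. Within arrays, the change was -0.51 (SE 0.0811) for DLX5 minus DLX6, -0.61 (SE 0.0638) for DLX3 minus DLX4 and -0.46 (SE 0.11) for MSX2 minus MSX1. The groups did not overlap in any of the 3 comparisons, and each exact permutation p was 0.10, the smallest that 3 against 3 allows. These pairs, too, were chosen after the values were seen, so the lack of overlap is a description and no test. The third pair departed from this: DLX2 fell by 0.35 (SE 0.0505) and DLX1 fell by 0.24 (SE 0.044), with limma adjusted p of 0.000499 and 0.00219. Of the 5 other DLX and MSX genes, 2 fell and 0 rose, a share of 40% near the 41.5% of all genes.

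GATA3 encodes a zinc finger factor of the skin barrier and hair follicle whose loss in humans affects parathyroid, hearing and kidney. It was at 10.61, 10.60 and 10.59 in shControl and at 10.31, 10.36 and 10.48 in shTP63. The shControl values were nearly equal, and the shTP63 values were lower and more spread (SD 0.0855 against 0.0085). GATA3 fell by 0.22 (SE 0.0516, limma adjusted p = 0.00817). The call was lost after quantile scaling of single-gene probe sets (-0.13, adjusted p = 0.0723) and after cyclic loess (-0.14, adjusted p = 0.0596). GATA3 lay in the top bin when genes were cut into 5 equal bins by level, where 44.0% of all genes fell and the median difference was -0.10.

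Of 8 other GATA factors and cofactors, 2 rose and 1 fell, or 37.5% called, which is near the 41.5% of all genes. GATA2, best known from blood and vessel development, fell by 0.28 (SE 0.0487), while GATA6, a factor of endoderm and heart that is also made in skin, rose by 0.26 (SE 0.0532), with limma adjusted p of 0.00166 and 0.00396. TRPS1, an atypical GATA-type repressor mutated in a syndrome of hair, face and bone, rose by 0.58 (SE 0.0734, limma adjusted p = 0.000258) with both groups under the background level.

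SATB1 organises chromatin loops at the epidermal gene cluster of keratinocytes. It was at 5.07, 4.80 and 4.96 in shControl and at 5.09, 5.09 and 5.04 in shTP63. The groups overlapped at a level under the olfactory receptor measure, the difference was 0.12 (95% interval -0.03 to 0.27), and it did not pass (limma adjusted p = 0.178). It passed in 1 of 15 alternatives, without shControl replicate 1 (0.19, adjusted p = 0.0424). Among 4 other tested genes of the CUT homeobox class CUX1, a transcriptional regulator, fell by 0.42 (SE 0.0604, limma adjusted p = 0.000518), and the other 3 did not pass (25.0% called against 41.5% of all genes).

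CHUK encodes IKK-alpha, a kinase of the complex that releases NF-kappa-B, which is also needed in keratinocytes for differentiation in a way that does not use its kinase activity. Its loss in humans causes a lethal syndrome with fused limbs and a sealed epidermis. CHUK was at 9.52, 9.55 and 9.50 in shControl and at 9.42, 9.43 and 9.37 in shTP63. The groups did not overlap, yet the difference of -0.11 (SE 0.0426, 95% interval -0.21 to -0.01, not adjusted for the number of genes) did not pass (limma adjusted p = 0.0653). It passed in 3 of 16 alternatives, among them centring on the array median (-0.22, adjusted p = 0.00262), and was -0.03 (adjusted p = 0.69) after quantile scaling of single-gene probe sets. In the bin of level that held CHUK, the next to the brightest, 43.0% of all genes fell and the median difference was -0.10. IKBKB, the other kinase of the complex, had a difference of -0.10 (SE 0.0442) that missed the threshold (limma adjusted p = 0.12). It too passed after centring on the array median (-0.20, limma adjusted p = 0.00452). CHUK minus IKBKB changed by -0.02 (SE 0.0539) with overlap between groups (exact permutation p = 0.80).

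**Figure D2:**
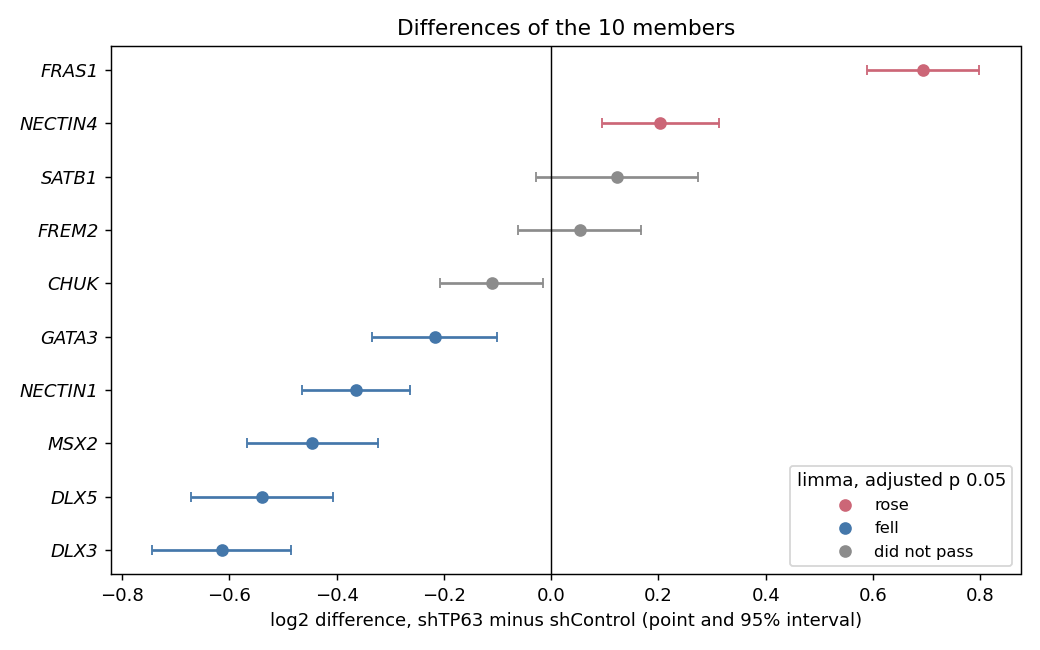
Log2 difference (horizontal axis, shTP63 minus shControl) of each of the 10 genes with its 95% interval from limma, not adjusted for the number of genes; red points rose, blue points fell and grey points did not pass. The values run from -0.61 for DLX3 to 0.69 for FRAS1, and the interval of CHUK, which did not pass after adjustment, ends at -0.01.

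The ectodysplasin pathway, which signals through the same kinase complex in hair, tooth and sweat gland buds, was measured together with it. Of 16 tested genes of the complex and the pathway, 4 rose and 6 fell, or 62.5% called against 41.5% of all genes (16.4% rose, 25.1% fell). Brighter genes were called more often, and these shares were not matched for level. EDARADD, the adaptor of the ectodysplasin receptor and itself an ectodermal dysplasia gene, fell by 0.58 (SE 0.0541, limma adjusted p = 5.01e-05). NFKB2, an NF-kappa-B precursor, rose by 0.41 (SE 0.0471) and NFKBIA, an inhibitor of NF-kappa-B, rose by 0.39 (SE 0.0419), with limma adjusted p of 0.00015 and 9.96e-05. Named after values were seen, the remaining rises were in MAP3K14, the kinase that activates IKK-alpha (0.18), and RELB (0.17). Both calls were lost after centring on the array median and after quantile normalization over all probe sets, and that of RELB also in the blocked fit (adjusted p = 0.0586) and without any 1 of 4 arrays (replicates 2 and 3 of either group). The receptor gene EDAR differed by -0.13 (SE 0.0454, limma adjusted p = 0.0477), and its call was lost without any 1 of 5 arrays (all but shTP63 replicate 3), after cyclic loess, after quantile scaling of single-gene probe sets and in the blocked fit (adjusted p = 0.0756). IKBKG, the regulatory subunit of the complex, differed by -0.16 (SE 0.0497, limma adjusted p = 0.0293), a call lost without any 1 of 4 arrays (replicates 1 and 3 of shControl, 1 and 2 of shTP63) and after quantile scaling of single-gene probe sets. The remaining falls, also named after values were seen, were those of TAB2 (0.32, SE 0.0497), RELA (0.24, SE 0.0509) and NFKB1 (0.20, SE 0.0507). Their limma adjusted p ran from 0.000831 to 0.0124. The calls of TAB2 and RELA held in all 16 alternatives. That of NFKB1 was lost after quantile scaling of single-gene probe sets, after cyclic loess and without shControl replicate 2. The ligand gene EDA differed by -0.00 (SE 0.0555) with both groups under the background level.

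Other genes of the same disorders were taken from lists drawn up by name. Of 13 tested orofacial clefting genes, 1 rose and 5 fell (46.2% called, near the 41.5% of all genes), and the median of their differences was -0.10. GRHL3, a grainyhead factor of the periderm and barrier whose mutations cause cleft palate, was at 9.18 ± 0.065 in shControl and 8.23 ± 0.11 in shTP63 (SD, n = 3). It fell by 0.96 (SE 0.0632, limma adjusted p = 9.06e-06), more than any of the 10 genes above. PAX9, a palate and tooth factor, fell by 0.36 (SE 0.0477) and TFAP2A, a regulator of surface ectoderm and neural crest, by 0.33 (SE 0.0464), with limma adjusted p of 0.00031 and 0.000457. Named after their values were seen, the remaining changes were the falls of ARHGAP29 and MEIS2 and the rise of the cadherin gene CDH1 (0.29, SE 0.042). GRHL2, a grainyhead relative in the next list, differed by 0.01 (SE 0.0411).

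Of 22 other tested ectodermal dysplasia genes, 3 rose and 5 fell, a share of 36.4% against 41.5% of all genes. GJB2, the gap junction protein connexin 26, rose by 0.80 (SE 0.044) and the Wnt coreceptor LRP6 by 0.62 (SE 0.059). KCTD1, a repressor mutated in a syndrome of scalp, ear and nipple defects, fell by 0.80 (SE 0.0506). Adjusted p in limma ran from 3.42e-06 to 5.24e-05 for these 3 genes. CDH3, the P-cadherin gene of a syndrome of sparse hair and split hands, rose, and PKP1, KRT14, HOXC13 and KDF1 fell; these 5 are named because of their values. The kinase RIPK4, whose loss causes severe webbing and clefts, had a difference of -0.08 (SE 0.046) that missed the threshold (limma adjusted p = 0.196). RIPK4 passed after centring on the array median (-0.19, limma adjusted p = 0.0081).

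Of 8 other genes of split hand and foot malformation, 3 fell and 0 rose, or 37.5% called against 41.5% of all genes. BTRC, an F-box protein that marks beta-catenin and NFKBIA for degradation, fell by 0.81 (SE 0.0452) and FBXW4, an F-box gene of the same duplicated region, by 0.44 (SE 0.0468), with limma adjusted p of 3.72e-06 and 9.75e-05. EPS15L1 fell by 0.15 (SE 0.0471, limma adjusted p = 0.0271), a call that held in 9 of 16 alternatives. Over all 9 lists 17 of 90 genes rose and 24 fell, so that 45.6% were called against 41.5% of all genes, with a median difference of -0.00. After centring on the array median 11 of the 90 rose and 36 fell.

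**Figure D3:**
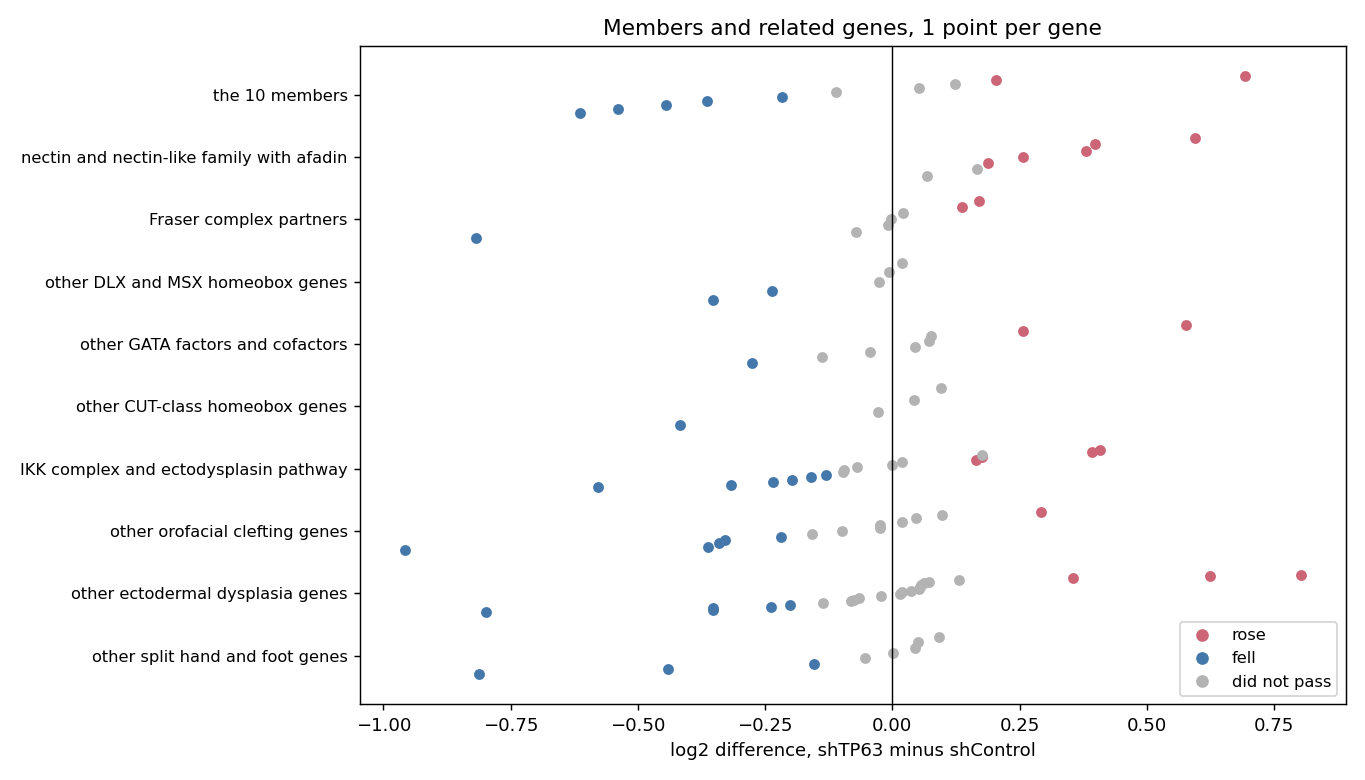
Log2 difference (horizontal axis, shTP63 minus shControl) of the 10 genes and of the 90 related genes, 1 point per gene and 1 row per list, spread vertically by rank; red points rose, blue points fell and grey points did not pass. The row of nectin relatives lies wholly to the right of 0, but NECTIN1, which fell, is in the row of the 10 genes. The lowest value is that of GRHL3 at -0.96.

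The genes whose pattern over the 6 arrays was most like that of a given gene were found by the root mean square distance between log2 values, each gene centred on its own mean, among the 13180 genes with a mean above the background level. For FRAS1 these were TRIO, FZD3 and ECE1, at distances of 0.0197, 0.0206 and 0.0211. For DLX3 they were BBLN, MBNL3 and WDR89, at 0.0335, 0.0401 and 0.0411. For DLX5 they were SASH1, HYKK and C19orf33, at 0.0367, 0.0368 and 0.0407. With 2 groups of 3 arrays the distance mostly measures whether the difference between groups is of like size.

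The scaling of the arrays changed the differences, and not all in 1 direction: quantile normalization over all probe sets took FRAS1 from 0.69 to 0.63 and NECTIN4 from 0.20 to 0.25. With each array centred on its median, the median difference over the 18404 genes went from -0.01 to -0.12 and the share of falls among the calls from 60.5% (3015 rose, 4619 fell) to 81.7% (1782 rose, 7932 fell), whereas it was 52.8% after quantile scaling of single-gene probe sets. Under the 5 scalings FRAS1 rose and DLX3, DLX5, MSX2 and NECTIN1 fell each time.

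**Figure D4:**
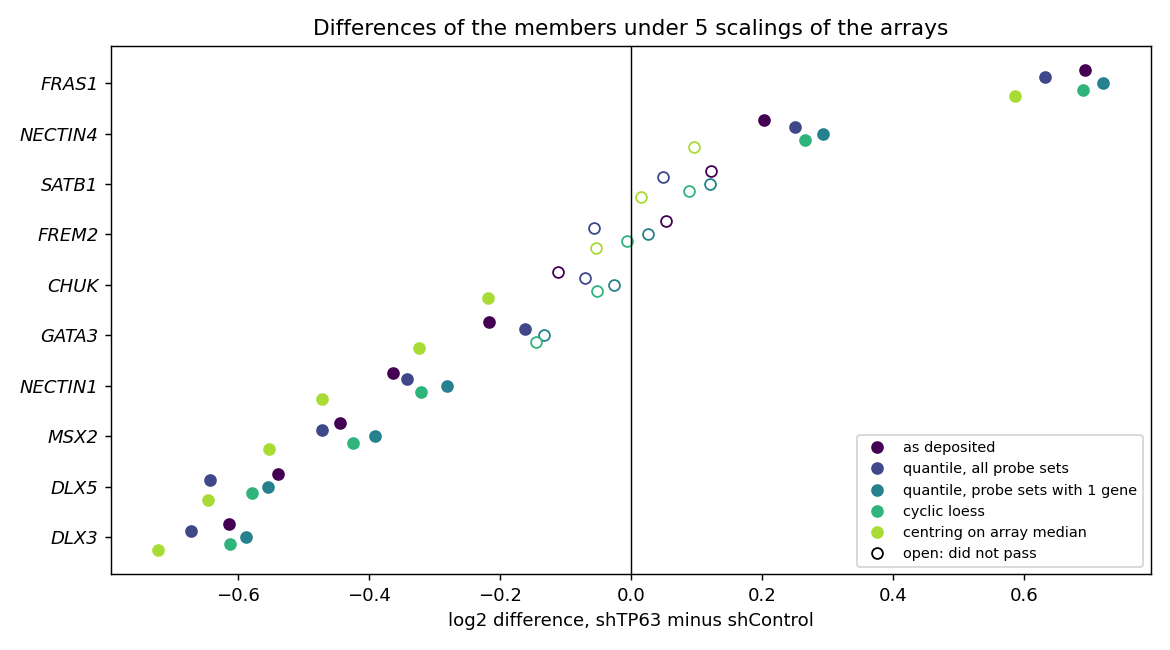
Log2 difference (horizontal axis, shTP63 minus shControl) of each of the 10 genes under 5 scalings of the arrays, told apart by colour; filled points passed limma's test at an adjusted p of 0.05 and open points did not. NECTIN4 is open after centring, GATA3 is open after cyclic loess and after quantile scaling of single-gene probe sets, and FREM2 lies on both sides of 0.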

How the data were processed

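Groups and replicate numbers came from the sample titles. The submitters' processing notes name RMA, a robust averaging over arrays and probes, and R 2.15.1. The authors deposited 1 linear-scale intensity per probe set, of which log2 was taken here. RMA as usually run corrects background, brings arrays to a common distribution and summarises probes; the deposited array medians still differed between the groups (log2 7.44 to 7.47 in shControl, 7.54 to 7.57 in shTP63). The genome build and filters are not given in the sources used here.

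Of 32321 probe sets, 19158 carried 1 gene symbol in the platform annotation, 1388 several and 11775 were unlisted. Of those with 1 gene, 19128 matched RefSeq (GRCh38.p14) by Entrez identifier. Where a gene had several probe sets, the one of highest mean level stood for it, and the 10 genes had 1 probe set each. Groups were compared over 18404 genes with limma 3.58.1 in R 4.3.3, two-sided, with no covariate and Benjamini-Hochberg adjustment. The steps were also run on simulated data. Unlike the real data, these had few changed genes and no shift between arrays, so they do not bear on the scaling. Arrays give no counts, so the number of arrays, 3 per group, limits the precision (median within-group SD 0.0583).

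The members, lists, tests and pairs were chosen with earlier results of these data known. The text names the 10 genes, in each related list the up to 3 genes past the threshold with the smallest adjusted p, for FRAS1, DLX3 and DLX5 (the largest absolute differences) the 3 most alike genes, and others where marked as named after their values were seen. Without a mark of its own, a gene named as not passing (NECTIN3, FREM1, DLX4, DLX6, MSX1, IKBKB, EDA, GRHL2, RIPK4), IKBKG and EDAR were also chosen after values were seen. The alternatives tried were a block for replicate number, 4 other scalings, leaving out the dimmest 40% of genes, averaging probe sets, a trended robust prior, array weights, log2(value + 16) and each array left out in turn. Of 98 related genes listed, 90 were tested, and the others were not analysed here.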

Additional observations from a re-analysis of the deposited data

How the results depend on the processing

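FRAS1, DLX3, DLX5, MSX2 and NECTIN1 kept their direction and call in all 16 alternatives, with FRAS1 between 0.59 and 0.72, DLX3 between -0.72 and -0.56, DLX5 between -0.65 and -0.48, MSX2 between -0.55 and -0.39 and NECTIN1 between -0.47 and -0.28. After centring on the array median NECTIN4 (0.10, adjusted p = 0.125) lost its call and CHUK gained one (-0.22), FREM2 became -0.054, 1 of the 10 genes rose, 11 related genes rose, and 1782 genes rose and 7932 fell in all. GATA3 lost its call after quantile scaling of single-gene probe sets (-0.13) and after cyclic loess (-0.14). FREM2 was -0.056 after quantile normalization over all probe sets and -0.0055 after cyclic loess. CHUK gained a call at -0.11 both without the dimmest 40% of genes (adjusted p = 0.0265) and with a trended robust prior (adjusted p = 0.0415). MSX1 turned to -0.091 after quantile normalization over all probe sets, to -0.089 after centring, to -0.0079 after quantile scaling of single-gene probe sets and to -0.043 after cyclic loess, and GRHL2 turned to -0.093 after centring. Among the related genes named as not passing, IKBKB (-0.20) and RIPK4 (-0.19) gained calls after centring on the array median. The cause of these changes was not tested. With single arrays left out, SATB1 ranged from 0.052 to 0.19, DLX4 from -0.0442 to 0.0192, DLX6 from -0.0695 to 0.00071 and MSX1 from -0.0369 to 0.073. FREM2 and SATB1 had no value without the dimmest 40% of genes.

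With the replicate number as a block 7165 genes were called instead of 7634, and 7 of the 10 genes. Deviations of same-numbered arrays correlated at -0.15, -0.04 and 0.13. The best matches of shControl replicates 1 and 2 were shTP63 replicates 2 and 1, at 0.16 each. Deviations within so small a group are not independent, so these values cannot decide whether the replicate numbers pair the samples. The block changed no call among the 10 genes, and of the related genes named it ended those of NPNT, RELB and EDAR and gave one to NECTIN3. Values of SATB1, NECTIN3, TRPS1, FREM1 and EDA rest on group means under the background level of signal.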

Other observations

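The nearest protein-coding gene on either side of each of the 10 genes, taken from the RefSeq annotation (GRCh38.p14), was read as a description of the surroundings. Of these 20 neighbours 2 rose and 8 fell, against 41.5% of all genes called (16.4% rose, 25.1% fell). TRIM29, a keratinocyte-expressed tripartite motif gene next to NECTIN1, fell by 0.47 (SE 0.0405), and MRPL1, a mitochondrial ribosomal protein gene next to FRAS1, fell by 0.61 (SE 0.0529) while FRAS1 rose. ERLIN1, a membrane protein gene of the endoplasmic reticulum next to CHUK, rose by 0.35 (SE 0.0451), and ITGA3, the integrin subunit gene next to DLX3, rose by 0.23 (SE 0.0402) while DLX3 fell. Adjusted p in limma ran from 3.1e-05 to 0.00153 for these 4 genes, which were chosen after their values were seen.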
